A study of Mus musculus with 5 samples.

Results

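The SLAM family with its relatives Cd2 and Cd48 is a set of small immunoglobulin-type receptors on blood cells. Its 10 members (Cd2, Cd48, Cd84, Cd244, Ly9, Slamf1, Slamf6, Slamf7, Slamf8 and Slamf9) were taken by gene name from the 31626 genes of the series, and each name matched 1 gene. Their transcripts were measured in 5 RNA sequencing libraries of common myeloid progenitors from mice, the marrow precursors of granulocytes, monocytes, erythroid cells and megakaryocytes. All cells were of strain C57Bl/6, were transformed with the MSCV-MN1-IRES-GFP retrovirus, which expresses the leukaemia cofactor MN1 together with green fluorescent protein, and grew in M3234 medium with IL3, IL6, SCF and serum. The 3 control libraries came from MLL1 flox/flox cells transduced with a control, and the 2 knockout libraries from cells given Cre and labelled MLL1 -/-, both sorted 7 days after transduction. Cre exposure and loss of Mll1, a histone H3 lysine methyltransferase, cannot be told apart in this comparison. No label says that libraries came from different mice or cultures, and p-values here reflect only how far these libraries spread, possibly for technical reasons.

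Most SLAM receptors bind the same receptor on a neighbouring cell, whereas Cd48, held in the membrane by a lipid anchor, is the ligand of Cd244 and, in rodents, of Cd2. Many of the receptors carry tyrosine switch motifs in their tails, which recruit the small adaptors SAP and EAT-2 and, through SAP, the kinase Fyn. In mouse blood formation Slamf1 and Cd48 are used to sort cells, since long-term stem cells carry Slamf1 and lack Cd48, while committed progenitors gain Cd48.

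Values are FPKM (fragments scaled for gene length and for the size of the library), which can be compared between genes. Absolute depth is unknown. The FPKM that 1 read is worth, read from the steps of low values, lay between 0.98 and 1.018 times that in control replicate 1. Control replicate 1 stood apart: the median gene differed from the other controls by 0.233 and 0.22 on the log2(FPKM + 1) scale. This difference was 0.114 between control replicates 2 and 3 and 0.073 between the knockouts. From the knockouts, control replicates 2 and 3 differed by 0.213 to 0.258 and control replicate 1 by 0.267 and 0.279. Control replicate 1 was thus about as far from the other controls as these were from the knockouts. Control replicate 1 also had a higher neutrophil marker sum: 10 markers summed to 6409 FPKM there and to 794 and 1055 FPKM in the other controls. The knockouts summed to 22417 and 20685 FPKM. S100a8 and S100a9 made up most of each sum. Mmp8 was lower in control replicate 1 (38.7 FPKM) than in the other controls (65.0 and 64.3 FPKM), as was Ly6g. Camp, Ngp and Ltf were higher in control replicate 1 (42.9, 106 and 4.67 FPKM) than in either knockout. Of the progenitor markers, Kit, Cd34, Mpo, Cebpa and Fcgr3 were at 56.8 FPKM or more in every library, and Ly6a stood between 1.92 and 5.89 FPKM. Their levels were not all alike in the groups: Mpo rose from a mean of 924 to 2447 FPKM (limma adjusted p = 0.0469). Fcgr3 was also called as a rise and Cd34 as a fall. Mll1 itself was lower in both knockouts (6.22 and 5.32 FPKM) than in the controls (9.67, 7.28 and 7.19 FPKM). That difference was not called by limma (adjusted p = 0.158), and the exact two-sided permutation test gave p = 0.1, the smallest that 3 libraries against 2 allow. A value over the whole gene also takes in exons outside the floxed stretch, so it is a weak check of the deletion.

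The family was dominated by Cd48 in every library. Over all 10 members the controls summed to 135, 166 and 146 FPKM (replicates 1, 2 and 3) and the knockouts to 113 and 107 FPKM (replicates 1 and 2). Cd48 made up 81.4%, 76.9% and 76.6% of that sum in the controls and 68.0% and 66.6% in the knockouts. The share of Ly9 was 4.90%, 7.81% and 8.96% in the controls and 12.7% and 13.4% in the knockouts. Cd2 supplied 0.0262% of the sum in control replicate 1, none in the other controls, and 7.47% and 7.55% in the knockouts. The knockout libraries therefore held a smaller family total with a receptor in it that the controls all but lacked.

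Of the 10 members, 6 passed the filter on low values (at least 1 FPKM in at least 2 libraries) and were tested with limma: Cd2, Cd48, Cd84, Cd244, Ly9 and Slamf9. Cd2 rose, Cd48 and Cd84 fell at an adjusted p under 0.05, and the other 3 were not called. Over the 11780 genes tested, 9.79% were called, 3.82% as rises and 5.97% as falls. Cd2 passed the filter only through the knockouts and Slamf9 only through control replicates 2 and 3, so the counts over these 6 are a description and not a result about the whole family. The other 4, Slamf1, Slamf6, Slamf7 and Slamf8, stayed below the filter.

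**Figure D1:**
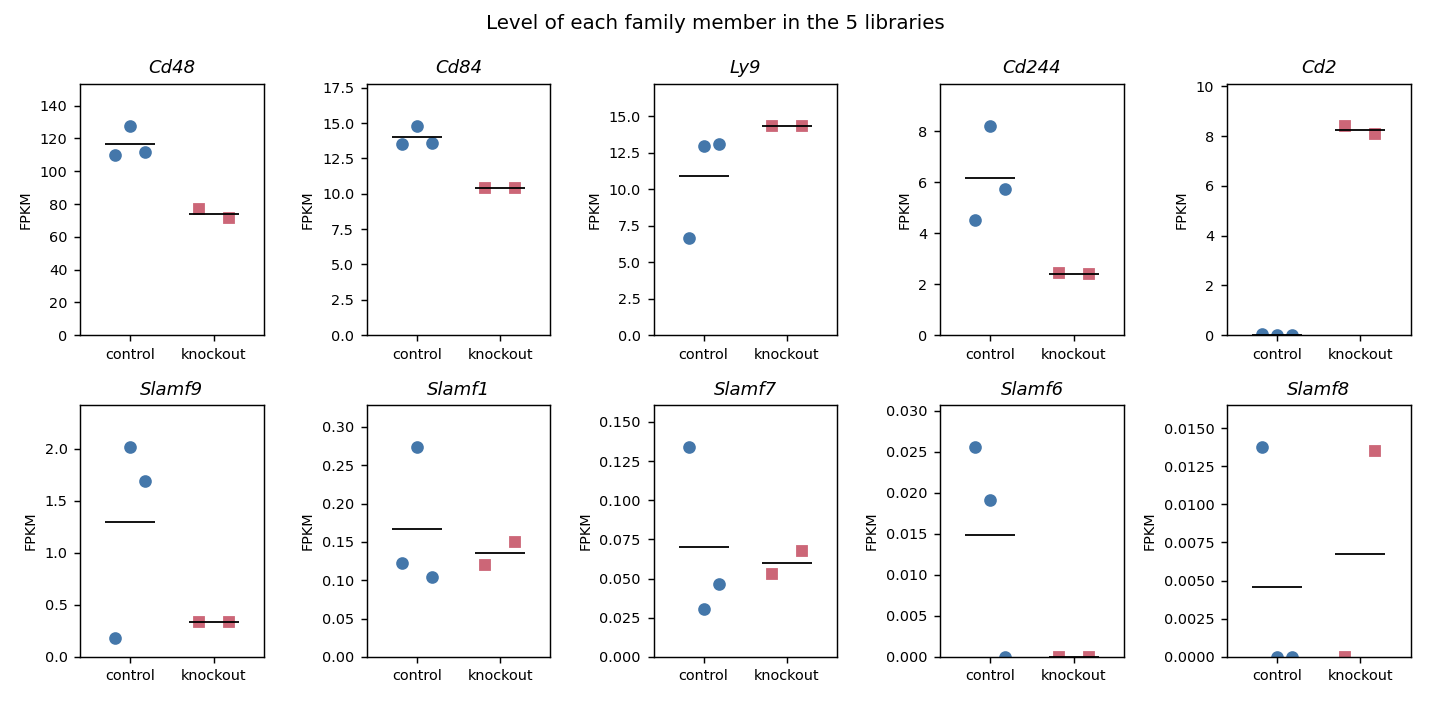
FPKM of each member in the 3 control libraries (circles) and 2 knockout libraries (squares), with the group mean as a line and a separate axis from 0 in each panel. The knockouts lie below every control for Cd48, Cd84 and Cd244 and above every control for Cd2 and Ly9.

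The ligand Cd48 (ENSMUSG00000015355) was the most abundant member, above 92.9% of the tested genes in the controls and 87.3% in the knockouts. The controls held 110.2, 128 and 112 FPKM (replicates 1, 2 and 3) and the knockouts 76.7 and 71.4 FPKM (replicates 1 and 2). Both knockouts lay below all 3 controls, as they did for 29.4% of the genes tested. The group means were 117 ± 9.80 FPKM (SD, n = 3) and 74.1 ± 3.70 FPKM (SD, n = 2), which is 1.57-fold lower in the knockouts. On the log2(FPKM + 1) scale the change was -0.65 ± 0.10 (SE; 95% interval -0.90 to -0.40; limma adjusted p = 0.0257). In bulk RNA, fewer cells carrying a transcript and less of it per cell cannot be told apart. The call was lost under 6 of 14 alternatives. Among them were no filter (limma adjusted p = 0.0901), a replicate block (0.129), and leaving out control replicate 2 (0.0703) or 3 (0.0778). Over all genes tested, 45 rose and 66 fell without control replicate 2, and 70 rose and 134 fell without control replicate 3. The change was -0.70 without knockout replicate 1 and -0.60 without knockout replicate 2, where 1 knockout library remained. Changes lay between -0.70 and -0.58 over all alternatives. Monocyte markers were mixed: of 9 listed 4 were tested, and Irf8 and Ccr2 fell. Emr1 and Cd68, the others tested, overlapped between the groups and were not called. The summed level of the list was 51.3 to 99.5 FPKM in the controls, against 39.5 and 43.2 FPKM in the knockouts. Emr1 in control replicate 1 supplied 52.6 FPKM of the highest sum, and Siglech was listed at 0 throughout. The part of monocyte precursors in the Cd48 values was not tested.

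Cd244 (ENSMUSG00000004709), the inhibitory or activating receptor for Cd48 on natural killer and other cells, was lower in the knockouts but missed the threshold. The controls held 4.50, 8.23 and 5.73 FPKM, the knockouts 2.44 and 2.39 FPKM. The knockout values lay below every control, although the controls themselves spread over a wide range. The means were 6.16 ± 1.90 FPKM (SD, n = 3) and 2.41 ± 0.0320 FPKM (SD, n = 2), with a log2(FPKM + 1) change of -1.03 ± 0.23 (SE; 95% interval -1.63 to -0.44; limma adjusted p = 0.0564). Without control replicate 1 the change was -1.21 and the limma adjusted p 0.0188. In that setting 1398 of the 11780 genes tested rose and 2118 fell, against 3.82% and 5.97% in the main fit. The adjusted p was 0.0497 when 0.1 was added before taking logs and 0.0488 with robust empirical Bayes. Under the other 10 of 13 alternatives Cd244 was not called, as with no filter (limma adjusted p = 0.215) or without control replicate 3 (0.131). Natural killer cell markers summed to 128 to 184 FPKM in the controls, against 99.6 and 92.1 FPKM in the knockouts, most of it from Nkg7, which fell. Gzmb, the other natural killer marker tested, held 2.62, 14.6 and 13.9 FPKM in control libraries, against 19.4 and 20.7 FPKM, and was not called (change 1.15, limma adjusted p = 0.322). Of the 8 markers, Ncr1 was listed at 0 in every library and 5 stayed at or below 0.1 FPKM. Cd244 (current symbol Cd244a) and Ly9 overlap on opposite strands of chromosome 1 in the annotation, with 0 shared exonic bases.

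Cd2 (ENSMUSG00000027863), the other receptor for Cd48 in rodents and an adhesion molecule of T and natural killer cells, went from near absence to a moderate level. Control replicate 1 held 0.0355 FPKM and the other controls were listed at 0, against 8.43 and 8.10 FPKM for knockout replicates 1 and 2. The highest control value was 0.43% of the knockout mean, and both knockouts lay above every control, as for 22.9% of the genes tested. The change was 3.19 ± 0.12 on the log2(FPKM + 1) scale (SE; 95% interval 2.89 to 3.50; limma adjusted p = 0.00362), the 29th in size of the 11780 tested. No fold is given, because 2 of the controls are at 0. Adding 5 before taking logs gave 1.40, and adding 0.1 gave 6.24. The call was lost without knockout replicate 1 (change 3.17, adjusted p = 0.0609) or knockout replicate 2 (change 3.22, adjusted p = 0.0890), where 1 knockout library remained.

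The pattern of Cd2 was shared by few genes in these libraries. The limits of this count were set to match the pattern of a member. That Cd2 meets them, and its rank, are therefore a description and no separate support. Of 14889 genes under 0.1 FPKM in every control, 13 reached at least 1 FPKM in both knockouts, and Cd2 ranked 4th among them by knockout mean. The other 12 were Rpl41, small RNA genes and unnamed clones, for which few reads can give a high FPKM. The reverse, at least 1 FPKM in every control and under 0.1 FPKM in both knockouts, held for 13 genes, among them Lrrc43, Ntrk2, Mpdz and Zfyve28. By distance over the 5 libraries on the log2(FPKM + 1) scale, the named genes nearest to Cd2 were Cyp2a5 (distance 0.925), Sez6l (1.173) and Tubb3 (1.692). None of them was as low as Cd2 in the controls: Cyp2a5 held 0.434, 0.398 and 0.459 FPKM there, against 8.16 and 10.4 FPKM in the knockouts. These distances rest on 5 libraries in 2 groups and are a description. Before entries for small RNAs, clones and repeated symbols were set aside, a choice made after the output was seen, the nearest were 2 U6 copies and mmu-mir-223, each listed at 0 in all controls.

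Markers that define the lymphocytes that usually carry Cd2 were mostly at or near 0, with exceptions. Among 10 T cell markers, Cd3g, Cd8a and Cd8b1 were listed at 0 in all 5 libraries, Cd3e did not exceed 0.0802 FPKM, and 6 stayed at or below 0.1 FPKM throughout. The T cell list summed to 13.6 to 19.7 FPKM for controls and 15.0 to 17.0 FPKM for knockouts, most of it from Lat, a membrane adaptor also found in mast cells and platelets. Cd28, a T cell costimulatory receptor, held 2.92, 6.30 and 6.23 FPKM in control libraries and fell to 0.374 and 0.448 FPKM (limma adjusted p = 0.0257). The 6 B cell markers never exceeded 1.08 FPKM, and Pax5 was listed at 0. Mast cell, basophil and eosinophil markers were also higher in sum: the list of 12 summed to 728 to 978 FPKM for controls and 1435 and 1463 FPKM for knockouts. Most of that sum came from Cpa3, which was not called (limma adjusted p = 0.0581). Of the 8 tested members 3 were called as rises, and Fcer1a and Epx were at or below 0.186 FPKM. Of the erythroid markers, 4 of 7 tested were called as rises, and of the neutrophil markers, with the sums given above, Lcn2 of 9 tested. Over all genes tested 3.82% were called as rises. The part of these cells in the Cd2 values was not tested.

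Of the receptors that bind themselves, Cd84 (ENSMUSG00000038147), found on mast cells, platelets and phagocytes, fell slightly. The controls held 13.5, 14.8 and 13.6 FPKM, and both knockouts, at 10.4 FPKM, lay below them. The means were 14.0 ± 0.732 FPKM (SD, n = 3) and 10.4 ± 0.0305 FPKM (SD, n = 2), a log2(FPKM + 1) change of -0.39 ± 0.08 (SE; 95% interval -0.60 to -0.19; limma adjusted p = 0.0473). This call was close to the threshold and was lost under 10 of 14 alternatives. It was lost without control replicate 2 (adjusted p = 0.117), control replicate 3 (0.108), knockout replicate 1 (0.331) or knockout replicate 2 (0.343), while every alternative kept the direction (-0.42 to -0.30). Megakaryocyte markers, of which Itgb3 fell among 5 tested, summed to 58.9 to 91.4 FPKM for controls and 47.8 and 39.8 FPKM for knockouts. The monocyte list, given above, was also lower in sum. Mast cell, basophil and eosinophil markers went the other way, at 728 to 978 FPKM for controls and 1435 and 1463 FPKM for knockouts. So did the neutrophil list, at 794 to 6409 FPKM against 22417 and 20685 FPKM. The part of any of these cells in the Cd84 values was not tested. The genes nearest to Cd84 over the 5 libraries were Smg6 (distance 0.063), Btd (0.134) and C2cd3 (0.134), and those nearest to Cd48 were Txndc5 (0.304), Slc22a3 (0.318) and Ncapd2 (0.346). In the annotation, Smg6, Btd, C2cd3, Txndc5 and Slc22a3 share exonic bases with an opposite-strand gene, and reads of that partner may enter their values.

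Ly9, a self-binding receptor of lymphocytes, was the member for which control replicate 1 mattered most among those above 1 FPKM in every library. The controls held 6.64, 13.0 and 13.1 FPKM, the knockouts 14.4 and 14.3 FPKM. The knockouts were above every control, but the level in control replicate 1 was 0.509 of the mean of the other controls. The means were 10.9 ± 3.69 FPKM (SD, n = 3) and 14.4 ± 0.0120 FPKM (SD, n = 2), with a change of 0.42 (95% interval -0.34 to 1.19; limma adjusted p = 0.397). Without control replicate 1 the change was 0.13, and the knockout mean lay close to control replicates 2 and 3. The difference was therefore smaller than the spread between controls.

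Slamf9, a receptor with a short tail that lacks switch motifs, showed the same split of the controls in a stronger form. The controls held 0.184, 2.02 and 1.69 FPKM, and each knockout held 0.339 FPKM. Control replicate 1 was below the knockouts and control replicates 2 and 3 were above them, so the groups overlapped. The change was -0.67 (95% interval -1.80 to 0.46, limma adjusted p = 0.369). Without control replicate 1 it was -1.09 (limma adjusted p = 0.0115). That setting leaves out the only control below the knockouts, so it is no separate support for a fall. Over the 11780 genes tested, 1398 rose and 2118 fell in it. The gene nearest to Slamf9 was Slc27a2 (distance 0.146). Slc27a2 had the same low value in control replicate 1, at 0.227 FPKM against 2.20 and 1.497 FPKM. It shares 419 exonic bases with an opposite-strand transcript, Gm26697. Control replicate 1 was the control with the highest neutrophil sum, and whether that bears on Slamf9 or Ly9 was not tested.

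**Figure D2:**
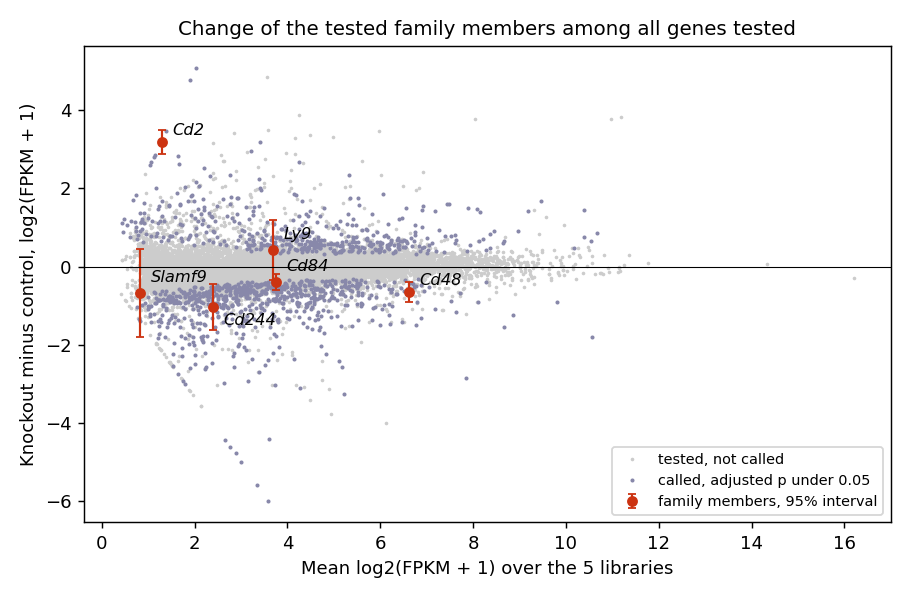
Change between groups (knockout minus control, log2(FPKM + 1)) against mean level for the 11780 genes tested, with the 6 tested members in red and bars for the 95% interval of each. Cd2 lies at 3.19, and the intervals of Ly9 and Slamf9 cross 0.

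The stem cell marker Slamf1 was close to undetected. The controls held 0.122, 0.273 and 0.104 FPKM and the knockouts 0.120 and 0.150 FPKM, which overlap. The exact permutation test gave p = 0.9. Slamf7, a self-binding receptor that signals through EAT-2, held 0.134, 0.0305 and 0.0468 FPKM in control libraries, against 0.0526 and 0.0677 FPKM (exact permutation p = 1). It shares 423 exonic bases with the antisense gene Gm37787. Slamf6, a T and natural killer cell receptor, held 0.0256 FPKM in control replicate 1 and 0.0192 FPKM in control replicate 2 and was listed at 0 elsewhere. Slamf8, a receptor of activated phagocytes without switch motifs, had a value above 0 in 2 libraries, 0.0137 FPKM in control replicate 1 and 0.0135 FPKM in knockout replicate 2. The ratio of these values, 0.981, equals the ratio of what 1 read is worth in those libraries. At such levels a difference between groups was not detectable. Set in the terms used for cell sorting, all 5 libraries held abundant Cd48 transcript and at most 0.273 FPKM of Slamf1.

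Promoter sequences are shown for Cd48, Cd84 and Cd244, the members whose knockout values lay below every control. RefSeq (GRCm38.p6, another build than that of the files) gave a promoter of 300 bases around the start for 8 of the 10 members; Cd2 and Ly9 were the others. Capitals mark matches on either strand to 5 motifs chosen after the members' values were seen. The ETS motif was searched as AGGAAG and the RUNX motif as TGTGGT. The E-box was CAGCTG, the GATA motif AGATAA, and the C/EBP motif TTGCNNAA. No matches overlapped in the promoters shown. The Cd48 window is chr1:171681742-171682041, the Cd84 window chr1:171839447-171839746 and the Cd244 window chr1:171558943-171559242, all on the plus strand.
Cd48: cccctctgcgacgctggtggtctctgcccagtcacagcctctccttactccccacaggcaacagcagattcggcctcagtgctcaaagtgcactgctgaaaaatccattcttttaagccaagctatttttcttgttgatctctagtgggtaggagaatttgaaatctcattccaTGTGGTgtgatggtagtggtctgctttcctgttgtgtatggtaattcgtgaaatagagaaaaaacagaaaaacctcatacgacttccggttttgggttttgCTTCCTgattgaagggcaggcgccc
Cd84: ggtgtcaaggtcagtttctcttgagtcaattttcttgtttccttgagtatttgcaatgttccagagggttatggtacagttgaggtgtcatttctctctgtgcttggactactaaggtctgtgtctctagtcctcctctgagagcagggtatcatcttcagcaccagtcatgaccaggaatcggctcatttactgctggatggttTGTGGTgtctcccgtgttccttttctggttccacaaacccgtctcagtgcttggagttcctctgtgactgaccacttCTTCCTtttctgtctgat
Cd244: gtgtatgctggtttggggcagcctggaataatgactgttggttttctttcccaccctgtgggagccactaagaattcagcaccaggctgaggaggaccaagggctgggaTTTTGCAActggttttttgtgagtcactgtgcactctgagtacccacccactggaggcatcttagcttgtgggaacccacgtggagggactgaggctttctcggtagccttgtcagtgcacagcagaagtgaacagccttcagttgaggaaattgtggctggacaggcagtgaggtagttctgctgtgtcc

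The promoters of Cd48 and Cd84, the called falls, each held 1 ETS and 1 RUNX match, and that of Cd244 held neither but 1 C/EBP match. An ETS match was present in 35.4% of the 32851 promoters of the table, a RUNX match in 16.8%, a C/EBP match in 10.8%, an E-box match in 16.3% and a GATA match in 11.2%. Among the 8 members with an entry, 5 held an ETS match, 2 a RUNX match, 4 the E-box, 1 the C/EBP match and 0 the GATA match. CpG pairs numbered 7 in the Cd48 window, 3 in that of Cd84 and 2 in that of Cd244, against a median of 7 over all promoters. These matches are letters in a window and say nothing of binding.

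Genes beside the members on the chromosomes were called about as often as genes in general. All members but Cd2 lie on chromosome 1, from Cd244 through Ly9, Slamf7, Cd48, Slamf1 and Cd84 to Slamf6, with Slamf9 and Slamf8 farther along. Of 44 listed neighbours 41 were found and 29 tested; 1 rose and 2 fell, near the 9.79% called over all genes tested, with a median log2(FPKM + 1) change of -0.01, against -0.03 over all genes tested. Pea15a, a death-effector-domain phosphoprotein gene, rose from 7.26 ± 0.426 FPKM (SD, n = 3) to 11.2 ± 0.296 FPKM (SD, n = 2; limma adjusted p = 0.0273). Vangl2, a planar cell polarity gene beside Slamf6, fell from 4.21 ± 0.483 to 2.24 ± 0.273 FPKM (adjusted p = 0.0417), and Wdr42a (current symbol Dcaf8) fell from 40.4 ± 1.27 to 31.8 ± 0.473 FPKM (adjusted p = 0.0463). Pea15a and Wdr42a share 123 exonic bases on opposite strands, so reads of one may enter the other. Without control replicate 1, 3 neighbours rose and 6 fell, where 1398 of the 11780 genes tested rose and 2118 fell. Without control replicate 2 no neighbour was called, where 45 of all genes tested rose and 66 fell. The same held without control replicate 3, where 70 of all genes tested rose and 134 fell.

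Cd2 lies on chromosome 3, where the flanking genes did not switch on with it. Ptgfrn, the next listed gene on one side, held 0.0181, 0 and 0.0138 FPKM in control libraries, against 0.00443 and 0 FPKM. Igsf3, the next on the other side, held 0.0205, 0.0153 and 0.0261 FPKM, against 0.00503 and 0 FPKM. Both encode immunoglobulin-type membrane proteins, as Cd2 does. These flanking genes were picked out by position from the list, after their values had been seen.

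**Figure D3:**
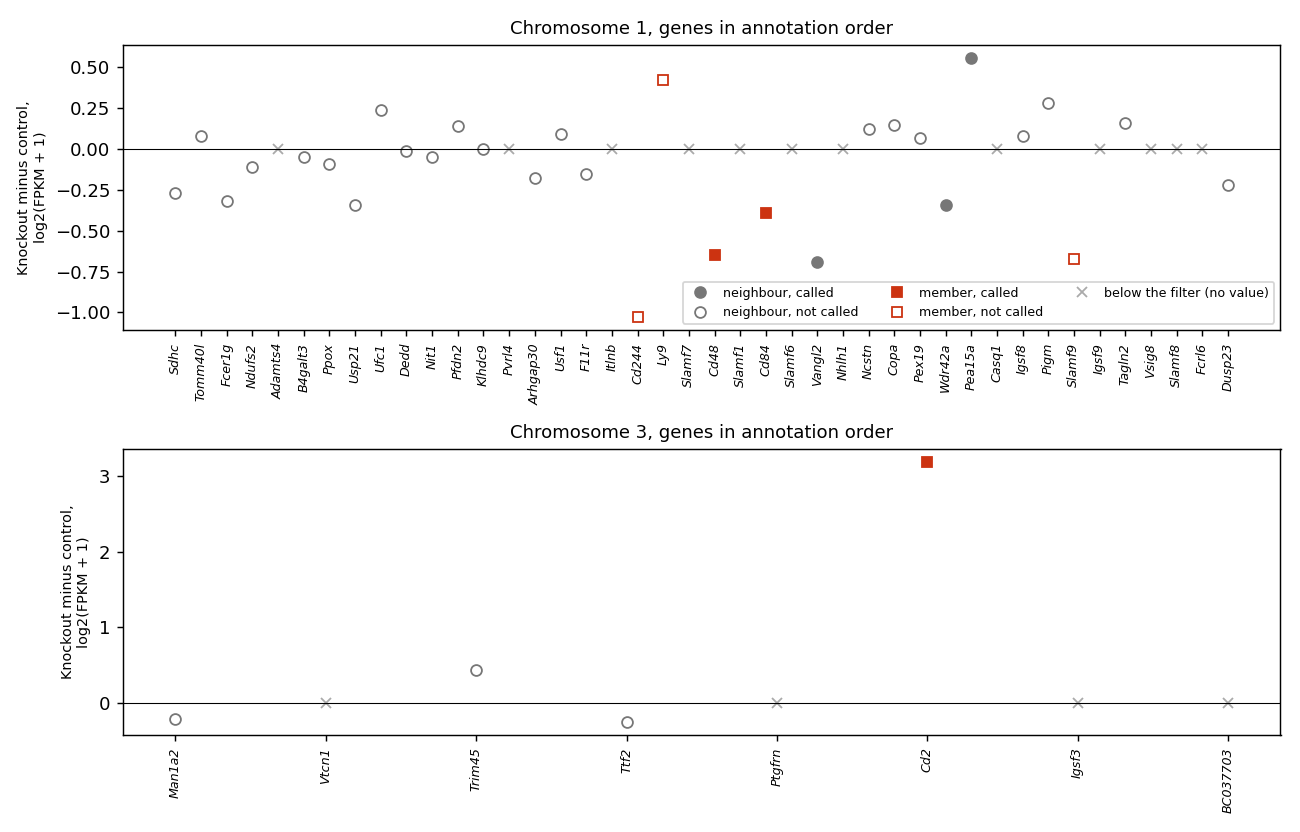
Change between groups (knockout minus control, log2(FPKM + 1)) of the listed neighbours (grey) and members (red) in annotation order on chromosomes 1 and 3; filled symbols were called, crosses mark genes below the filter and the panels have different axes. Neighbours lie between -0.69 and 0.56, while Cd2 lies at 3.19.

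Adaptors and enzymes downstream of the receptors were measured next. The adaptor genes themselves were absent or nearly so: Sh2d1a (SAP) and Sh2d1b2 were listed at 0 in all 5 libraries, and Sh2d1b1 (EAT-2) stood between 0.191 and 0.342 FPKM. Of 24 listed signal partners 18 were tested; 2 rose and 2 fell (9.79% of all genes tested were called), with a median log2(FPKM + 1) change of -0.04, against -0.03 over all genes. Fyn, the kinase that SAP recruits, fell from 16.8, 24.7 and 22.0 FPKM to 5.77 and 5.17 FPKM (limma adjusted p = 0.0131). Pstpip1, which binds the tail of Cd2, rose from 33.6, 36.3 and 36.0 FPKM to 59.8 and 61.7 FPKM (adjusted p = 0.0125). In both genes the groups were well apart. Vav1, a guanine nucleotide exchange factor, rose from 60.5 ± 1.13 to 85.8 ± 3.98 FPKM (adjusted p = 0.0230), and Plcg1, a phospholipase, fell from 23.1 ± 2.62 to 13.9 ± 0.685 FPKM (adjusted p = 0.0312). Plcg1 shares exonic bases with genes on the opposite strand. None of the 4 was called without control replicate 2, where 45 of all genes tested rose and 66 fell. Without control replicate 3, 1 member of the list rose, where 70 of all genes tested rose and 134 fell. Without control replicate 1, 2 members rose and 4 fell, where 1398 of the 11780 genes tested rose and 2118 fell.

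Surface markers used with Slamf1 and Cd48 to sort stem cells and progenitors were listed as well. Of 16 listed, 12 were tested, 1 rose and 5 fell, where 3.82% of all genes tested rose and 5.97% fell, and the median log2(FPKM + 1) change was -0.60, against -0.03 over all genes tested. The falls were Flt3, Cd27, Thy1, Cd34 and Cd9, with changes of -3.26, -2.35, -3.11, -1.54 and -0.86, and the rise was Fcgr3, an Fc receptor gene of granulocytes and monocytes, at 1.45. Cd9, a tetraspanin of platelets and stem cells, fell from 41.9 ± 1.57 to 22.6 ± 1.15 FPKM (SD, n = 3 and n = 2; limma adjusted p = 0.0106). In size the fall of Cd48 was smaller than each of the called falls. Both knockouts lay above every control for 3 of the 12 tested and below for 8, against 22.9% and 29.4% of all genes tested. Besides Fcgr3, those above were Prom1 (change 1.57, limma adjusted p = 0.0801) and Ly6a (change 0.71, limma adjusted p = 0.132), which were not called. The falls numbered 1 without knockout replicate 1 and 0 without knockout replicate 2. The median ran from -0.76 without control replicate 3 to -0.38 without control replicate 1. This list was chosen with earlier results of these libraries known and is no independent evidence of a direction.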

How the data were processed

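RNA was measured in 5 libraries made with a stranded mRNA kit, per the labels' protocols. The deposited values are FPKM per Ensembl gene, made by the authors; per the submitters' processing notes, the tools were Cuffdiff, SAMtools, GSNAP and CASAVA (1.8.2) and the build was mm9. How strand and multi-mapped reads were handled was not given in those notes. In 16 genes, no member among them, a library held 999999999; these were left out as failed estimates. Absolute depth is unknown, so no counting error is given.

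The 11780 genes reaching 1 FPKM in 2 or more libraries were tested on log2(FPKM + 1) in all 5 libraries with limma (3.58.1, R 4.3.3), an intensity trend and Benjamini-Hochberg adjustment over all genes tested; a call is an adjusted p under 0.05. Changes are knockout minus control, and this scale understates the change of low genes. The step was also run on simulated data with independent noise in each gene and library. Such data hold no shift shared by many genes of 1 library, so they cannot speak to control replicate 1. Named were all members, Mll1, list members by smallest p and the 3 nearest genes with a proper symbol (held by 1 row, no clone or small RNA name, a definition narrowed after the output was seen) of called members; those of Slamf9 and the flanks of Cd2 were added after their values were seen. Lists were matched by symbol or Ensembl ID. One neighbouring gene, counted in its list, is not reported here. GENCODE M21 (26606 IDs matched) gave order and overlaps only. The members and lists were chosen with earlier results of these data known. Alternatives covered the pseudocount, filter, scaling, empirical Bayes step, replicate block and each library left out, with the genes tested kept.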

Additional observations from a re-analysis of the deposited data

How the results depend on the processing

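Directions of the 6 tested members and of Mll1 held under every alternative that could test them; with a mean of at least 5 FPKM required, Cd2, Cd244 and Slamf9 were not tested, so no member rose (0). Family falls numbered 1 with a pseudocount of 5, median-ratio scaling, quantile normalization or no intensity trend, 0 with no filter, and 0 to 4 with 1 library left out; rises ran from 0 to 1. Over all genes 227 rose and 214 fell with no filter, and with 1 library left out from 0 to 1398 rose and from 0 to 2118 fell; 1669 genes had an unadjusted limma p under 0.05 where none was called. Median-ratio scaling gave 597 rises and 621 falls, against 450 and 703. With 1 library of a group left, its spread is assumed to equal that of the other group. Group sizes of 3 and 2 limit all calls, and the files give no depth for the lowest members.

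With the replicate number as a replicate block, 12 genes rose and 43 fell; Cd2 was still called (adjusted p = 0.0374) and the family had 0 falls, as had the signal partners (0 rises too) and the neighbours (0 rises too), while the surface markers had 3 falls, 0 rises and a median of -0.76. Deviations of same-numbered libraries correlated at 0.037 and 0.012 over genes. With 2 knockouts the deviations of one mirror those of the other, so these values cannot show whether same-numbered libraries shared a mouse or culture.

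With no filter the signal partners had 0 falls and the neighbours 0 rises and 0 falls. The neighbours had 1 fall with a mean of at least 5 FPKM, median-ratio scaling, quantile normalization or no intensity trend. The surface marker median was -1.20 with a mean of at least 5 FPKM. With 1 library left out, signal partners had 0 to 2 rises and 0 to 4 falls, surface markers 0 to 2 rises, 0 to 5 falls and a median from -0.76 to -0.38, and neighbours 0 to 3 rises and 0 to 6 falls. The cause of these shifts was not tested.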
